A study of Mus musculus with 4 samples.

Results

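Expression of 9 genes that carry the signal from PI3K through AKT to the FOXO transcription factors and to mTOR was followed in cultured mouse spermatogonial stem cells (SSCs), the germ cells that renew themselves and feed spermatogenesis. The genes were Pik3ca, Akt1, Akt2, Foxo1, Foxo3, Tsc1, Tsc2, Ddit4 and Mtor, taken by symbol from a table of 37653 genes and joined by gene identifier to read counts of 55335 genes. All 9 were found, and all 9 were among the 17262 genes with enough counts to test. The tested cells were labelled Tex11PM/Y. Tex11 is a gene of the X chromosome with a role in meiotic recombination, and what PM stands for is not given. They were set against wild-type (WT) cells. Both genotypes had the strain label C57/BL6*DBA2 and came from testes of mice at postnatal day 10, and both were passaged in culture and collected on a cell sorter before poly(A) RNA was sequenced. Each genotype had 2 libraries. The Tex11PM/Y libraries are called A and B, since their columns carry 1 shared name, and the WT libraries are 1 and 2. Whether the 2 libraries of a genotype were made from separate cultures, lines or animals is not stated, so p-values measure only the spread between these libraries.

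As background, growth factor receptors recruit PI3K, whose lipid product brings AKT to the membrane. AKT phosphorylates FOXO factors, which then leave the nucleus, and it phosphorylates the TSC2 protein, which releases RHEB to switch on mTOR complex 1, the kinase complex that drives protein synthesis. In the mouse testis, FOXO1 marks undifferentiated spermatogonia and is needed for their maintenance, and loss of TSC genes or overactive mTOR depletes the stem cell pool. GDNF, the niche factor that SSC cultures depend on, signals in part through PI3K and AKT. Much of this control acts on proteins and their phosphorylation, which messenger RNA does not measure.

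Total counts were 19306140 and 19804951 in the Tex11PM/Y libraries (A, B), against 19047148 and 19396809 in the WT libraries (1, 2). Tex11, the gene named in the genotype, had 22.7 and 9.32 CPM (counts scaled by TMM library size to a common total) in the Tex11PM/Y libraries (A, B), against 66.4 and 126 CPM in the WT libraries (1, 2), so every Tex11PM/Y library was below both WT libraries (edgeR unadjusted p = 0.00187, adjusted p = 0.884). All 10 germ cell markers had counts in every library, with summed levels of 3903 and 3907 CPM in Tex11PM/Y cells and 3069 and 3568 CPM in WT cells. Somatic markers were uneven. The 10 fibroblast markers summed to 409.5 and 4673 CPM in the Tex11PM/Y libraries (A, B), against 13328 and 3666 CPM in the WT libraries (1, 2). The 10 macrophage markers summed to 25.6 and 1254 CPM in the Tex11PM/Y libraries (A, B), against 673 and 528 CPM in the WT libraries (1, 2). Library A thus stood lowest for both somatic lists, with Lyz2 at 13.1 CPM, and WT library 1 highest for fibroblast markers. None of the 10 markers in either list was at 0 counts in any library. Sertoli, Leydig, myoid and endothelial markers summed to at most 195 CPM in any library, the myoid value of WT library 1. Of these, up to 2 of 6 Leydig markers and up to 1 of 6 endothelial markers were at 0 counts in a library. In bulk RNA, fewer cells of a type and less RNA per cell cannot be told apart.

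No member passed the test of a difference between genotypes. In edgeR's quasi-likelihood test with Benjamini-Hochberg adjustment, 0 of 9 members were past an adjusted p of 0.05, as were 0% of all genes tested, and 0 members had an unadjusted p under 0.05, against 2.7% of all genes. DESeq2 also called 0 of 9, with 0.00579% of all genes called. Of the members, 5 were fitted higher and 4 lower in Tex11PM/Y cells, with a median log2 fold change (Tex11PM/Y over WT) of 0.05 beside 0.01 over all genes. Both Tex11PM/Y libraries lay above both WT libraries in CPM for 3 members, Foxo1, Tsc1 and Tsc2, where 16.1% of all genes did so. They lay below both WT libraries for 1 member, Akt1, where 16.3% of all genes did so. With so few genes, counts of 3 and 1 beside such background shares are not read as a result about the 9. Counts of the members ran from 1080 to 9377 in a library, for a counting error between 3.04% and 1.03%. The common biological coefficient of variation was 43.4%, so the spread between libraries and not the depth set the width of every interval below.

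**Figure D1:**
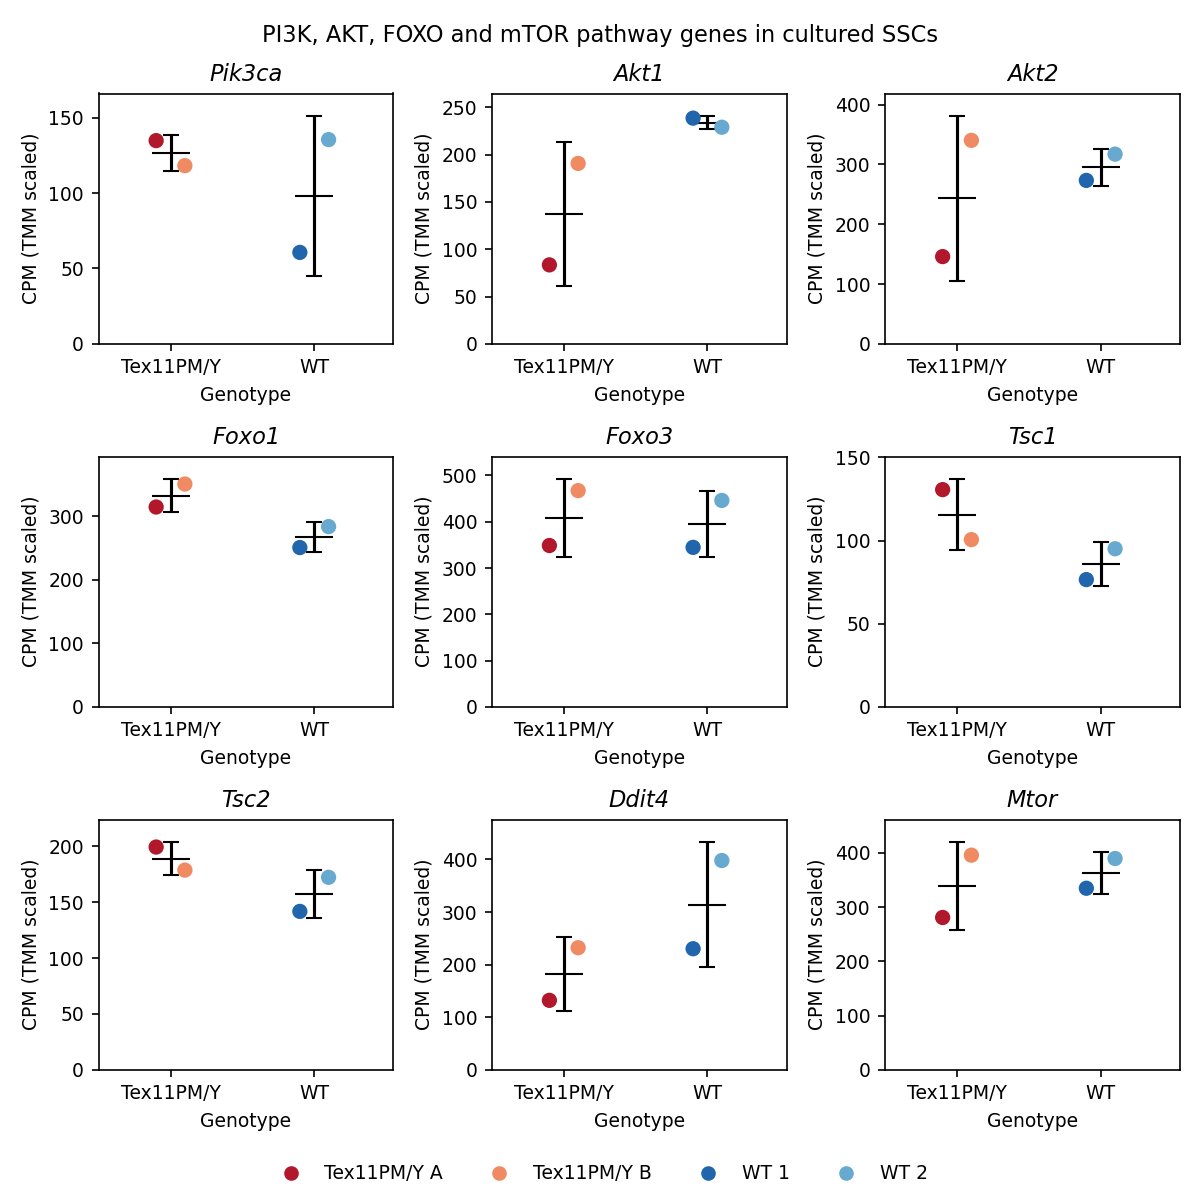
CPM of each gene in the 4 libraries (points), with the mean and SD of each genotype (bars, 2 libraries each); every vertical axis starts at 0. Tex11PM/Y points lie above both WT points for Foxo1, Tsc1 and Tsc2 and below both for Akt1, and the other 5 genes overlap.

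The promoters of Foxo1, Akt1 and Ddit4 are shown because Foxo1 was a gene whose Tex11PM/Y libraries lay above both WT libraries, and Akt1 and Ddit4 had the largest fitted differences. Sequences are RefSeq's for GRCm38.p6, the build also called mm10, and end just before the gene start in the deposited table. Foxo1 spans chr3:52268087-52268335 on the plus strand, Akt1 chr12:112674277-112674526 on the minus strand, and Ddit4 chr10:59951835-59952020 on the minus strand. Capitals mark matches on either strand to 4 short motifs: GTAAACA, the core bound by FOXO factors; ACGTG, the core of the hypoxia response element; GGGCGG, the GC box; and CCAAT.
Foxo1: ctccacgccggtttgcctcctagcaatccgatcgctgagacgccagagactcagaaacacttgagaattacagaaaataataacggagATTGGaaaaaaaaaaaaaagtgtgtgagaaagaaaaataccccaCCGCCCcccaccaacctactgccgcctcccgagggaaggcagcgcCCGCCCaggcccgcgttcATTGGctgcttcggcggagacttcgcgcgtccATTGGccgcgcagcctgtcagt
Akt1: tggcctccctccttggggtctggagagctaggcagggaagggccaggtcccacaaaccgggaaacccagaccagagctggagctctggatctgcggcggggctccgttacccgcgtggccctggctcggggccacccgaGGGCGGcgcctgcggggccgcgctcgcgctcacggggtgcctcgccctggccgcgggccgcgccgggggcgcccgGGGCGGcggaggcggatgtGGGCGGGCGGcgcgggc
Ddit4: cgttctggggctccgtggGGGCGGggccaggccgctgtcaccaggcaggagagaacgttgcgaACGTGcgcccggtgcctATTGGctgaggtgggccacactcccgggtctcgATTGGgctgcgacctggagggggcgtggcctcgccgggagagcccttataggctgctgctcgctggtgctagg
The search covered 250 bases before the RefSeq start in every promoter. Bases that lie inside the deposited gene are not printed, which takes 1 base from the 3′ end of Foxo1 and 64 from that of Ddit4. In this window the Foxo1 promoter held 3 CCAAT boxes and 2 GC boxes, and the Akt1 promoter held 4 GC boxes, of which the last pair overlap each other. Ddit4 held 1 hypoxia core, at bases 64 to 68 counted from the 5′ end of the sequence as printed, with 1 GC box and 2 CCAAT boxes. The other 6 promoters were searched in the same way and are not printed. The hypoxia core was found in 3 of the 9 promoters, those of Pik3ca, Akt2 and Ddit4, and in 16.6% of 32851 promoters in the table. The FOXO core was in 0 of 9 and in 3.17% of all promoters. GC boxes were in 7 of 9 and 32.7% of all, and CCAAT boxes in 3 of 9 and 33.9% of all. No motif of the 4 was found before Tsc1 or Tsc2. Akt1 and Akt2 have more than 1 start in the table, and a window holding the start of the deposited gene was used. The window of Pik3ca ends before the start of the deposited gene, so its match lies farther from that start. A match is only a description of the letters and says nothing of what is bound.

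Pik3ca (ENSMUSG00000027665.13, chr3:32397671-32468486, plus strand) encodes p110 alpha, a catalytic subunit of PI3K. It had 135 and 118 CPM in the Tex11PM/Y libraries (A, B), against 60.7 and 136 CPM in the WT libraries (1, 2). Its groups overlapped, because WT library 1 was 2.23-fold below WT library 2 while the Tex11PM/Y libraries differed by 1.14-fold. edgeR gave a log2 fold change of 0.37 (standard error 0.41, 95% interval -0.60 to 1.34, edgeR adjusted p = 0.894). It turned to -0.12 without WT library 1 and was 1.04 without WT library 2, so its direction rested on WT library 1. In FPKM, which divides by gene length and reads, 3 libraries were almost level at 12.47 and 12.48 in Tex11PM/Y cells and 12.46 in WT library 2, and WT library 1 had 5.27.

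Pik3ca was compared per length, in TPM (reads per length, scaled to a common total), with Pik3cb and Pik3cd, which encode other class I catalytic subunits. Pik3cd, which encodes p110 delta, took 64.2% and 70.9% of the summed TPM of Pik3ca, Pik3cb and Pik3cd in the Tex11PM/Y libraries (A, B), and 70.7% and 64.9% in the WT libraries (1, 2). Pik3ca took 22.8% and 18.4% in Tex11PM/Y cells and 15.2% and 23.3% in WT cells, a difference of 1.32 percentage points (two-sided exact permutation p = 1). With 2 libraries a group no exact p can go under 0.333. Over the left-out libraries it ran from -2.76 points, without WT library 1, to 5.40 points, without WT library 2, and it was -0.88 points without library A. p110 delta is best known from leukocytes. Pik3cd had 199 and 269 CPM in the Tex11PM/Y libraries (A, B), against 154 and 198 CPM in the WT libraries (1, 2), beside macrophage marker sums of 25.6 and 1254 CPM in Tex11PM/Y cells and 673 and 528 CPM in WT cells. The part of macrophage RNA in its level was not tested.

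Akt1 (ENSMUSG00000001729.14, chr12:112653821-112674276, minus strand) encodes the AKT kinase best known for cell survival and growth. Its level was 83.4 and 191 CPM in the Tex11PM/Y libraries (A, B), against 239 and 229 CPM in the WT libraries (1, 2). Both Tex11PM/Y libraries were below both WT libraries, and the gap between A and B, 2.29-fold, was larger than that between B and either WT library. Its fitted log2 fold change was -0.77 (standard error 0.41, 95% interval -1.74 to 0.20, edgeR unadjusted p = 0.104, adjusted p = 0.884). Without library A it was -0.29 and without library B -1.53, so library A supplied most of it. The medians of the 632 genes on chromosome 12, where Akt1 lies, were uneven. On the log2 scale, relative to the mean of the 4 libraries, they were -0.05 and -0.15 in the Tex11PM/Y libraries (A, B), against -0.22 and 0.43 in the WT libraries (1, 2). With these medians taken off, Akt1 stood at -0.99 and 0.30 in the Tex11PM/Y libraries (A, B), against 0.70 and -0.01 in the WT libraries (1, 2), so the groups overlapped, and the log2 difference was -0.69. On the other chromosomes that carry members, medians stayed between -0.05 and 0.05 in every library. Taking those off left Foxo1 and Tsc1 apart and higher in Tex11PM/Y cells. For Tsc1 the margin was narrow, with library B at 0.002 and WT library 2 at -0.05. Tsc2 then overlapped, with library B level with WT library 2. Ddit4 was apart and lower by a narrow margin, with library B at -0.006 and WT library 1 at 0.053. The share of all genes apart on this scale was not computed, so these orders are not read as a result about the members.

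Akt2 (ENSMUSG00000004056.15, chr7:27591552-27640826, plus strand) encodes the AKT kinase best known for insulin-stimulated glucose uptake. It had 146 and 340.2 CPM in the Tex11PM/Y libraries (A, B), against 273 and 317 CPM in the WT libraries (1, 2). Library B was the highest of the 4 and library A the lowest, a 2.33-fold gap within Tex11PM/Y that held the whole WT range. The log2 fold change came to -0.28 (standard error 0.42, 95% interval -1.27 to 0.71, edgeR adjusted p = 0.920), and without library A it was 0.21. Akt2-ps, a pseudogene of Akt2 on chromosome 11, was listed at 0.101 and 0.145 FPKM in the Tex11PM/Y libraries (A, B) and 0.455 and 0.445 FPKM in the WT libraries (1, 2). Akt2 itself was listed at 27.4 and 69.0 FPKM in Tex11PM/Y cells and 45.6 and 62.2 FPKM in WT cells; how reads that match both were counted is not stated.

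Foxo1 (ENSMUSG00000044167.6, chr3:52268336-52353221, plus strand) had 314 and 350.3 CPM in the Tex11PM/Y libraries (A, B), against 250.4 and 283 CPM in the WT libraries (1, 2). Both Tex11PM/Y libraries were above both WT libraries, and libraries of a genotype stayed close, within 1.12-fold in Tex11PM/Y cells and 1.13-fold in WT cells. Means were 332 ± 25.6 CPM in Tex11PM/Y cells and 267 ± 23.3 CPM in WT cells (SD, n = 2 each). edgeR gave a log2 fold change of 0.32 (standard error 0.28, 95% interval -0.35 to 0.98, edgeR adjusted p = 0.884). It kept its sign in all 13 alternatives, between 0.19 and 0.55, with the upper value from TPM. The gene Gm20402 overlaps 674 exon bases of Foxo1 on the opposite strand and had 0 counts in every library. Without stranded counting reads in the shared bases cannot be told apart, so 0 counts do not show that Gm20402 is silent.

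Foxo3 (ENSMUSG00000048756.11, chr10:42181841-42276755, minus strand), a close relative of Foxo1 known in the mouse ovary for holding oocytes dormant, was almost level. It had 349 and 467 CPM in the Tex11PM/Y libraries (A, B), against 345 and 446 CPM in the WT libraries (1, 2). Each genotype thus held a lower and a higher library, 1.34-fold apart in Tex11PM/Y cells and 1.29-fold apart in WT cells, and the groups overlapped. Its fitted log2 fold change was 0.05 (standard error 0.32, 95% interval -0.70 to 0.79, edgeR adjusted p = 0.985). It was -0.23 without library B and -0.15 without WT library 1. The interval leaves room for a change of about 0.7 on the log2 scale either way, so equal levels were not shown.

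Foxo3 was the most abundant of the 4 FOXO genes per length, at 38.9% and 42.6% of their summed TPM in the Tex11PM/Y libraries (A, B) and 38.6% and 48.1% in the WT libraries (1, 2). Foxo1 took 30.8% and 26.3% in Tex11PM/Y cells, against 22.2% and 24.6% in WT cells. Its groups did not overlap, with a difference of 5.18 percentage points (two-sided exact permutation p = 0.333), between 2.94 and 7.42 points when each library was left out. Foxo6 was the most uneven, with 10.1% in library A and 16.6% in library B, against 25.3% in WT library 1 and 14.3% in WT library 2. Foxo4 took 20.2% and 14.5% in Tex11PM/Y cells and 13.9% and 13.0% in WT cells, so its groups did not overlap either.

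**Figure D2:**
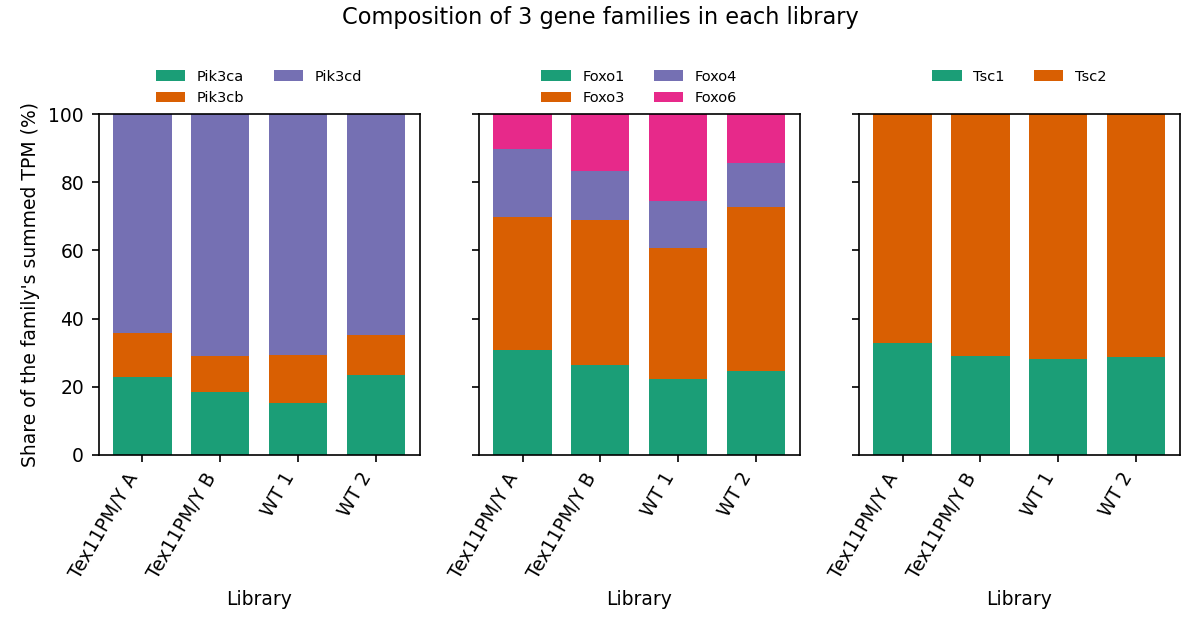
Share of each gene in the summed TPM of its family (percent, stacked to 100) in each library, for Pik3ca, Pik3cb and Pik3cd, the FOXO factors and the TSC1 and TSC2 partners. Foxo1 takes 30.8% and 26.3% in Tex11PM/Y cells against 22.2% and 24.6% in WT cells, and Pik3cd is the largest of its 3 genes in every library.

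Tsc1 (ENSMUSG00000026812.16, chr2:28641237-28691167, plus strand) encodes hamartin, which stabilizes its partner TSC2. It had 131 and 101 CPM in the Tex11PM/Y libraries (A, B), against 76.5 and 95.1 CPM in the WT libraries (1, 2). Tex11PM/Y libraries were above both WT libraries, by a narrow margin between library B and WT library 2. The log2 fold change was 0.43 (standard error 0.31, 95% interval -0.30 to 1.16, edgeR adjusted p = 0.884), the largest positive value of the 9.

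Tsc2 (ENSMUSG00000002496.10, chr17:24595816-24632630, minus strand) encodes tuberin, the subunit of the complex that turns RHEB off. Its level was 199 and 179 CPM in the Tex11PM/Y libraries (A, B), against 142 and 172 CPM in the WT libraries (1, 2). As with Tsc1, library A was highest, WT library 1 lowest, and library B stood just above WT library 2. The log2 fold change came to 0.27 (standard error 0.28, 95% interval -0.40 to 0.93, edgeR adjusted p = 0.893). Tsc2 shares 693 exon bases, 10.9% of its exons, with Pkd1 on the opposite strand, and without stranded counting their reads there cannot be told apart. Pkd1 had 2519 and 2145 counts in the Tex11PM/Y libraries (A, B) and 3053 and 1733 counts in the WT libraries (1, 2), an order unlike that of Tsc2. Tsc1 took 32.7% and 28.9% of the summed TPM of the pair in Tex11PM/Y cells, against 28.2% and 28.6% in WT cells, a difference of 2.40 points (two-sided exact permutation p = 0.333) that was 0.46 points without library A.

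Ddit4 (ENSMUSG00000020108.4, chr10:59949669-59951834, minus strand) encodes REDD1, a protein induced by hypoxia and other stress that restrains mTOR complex 1 through the TSC proteins. It had 132 and 232 CPM in the Tex11PM/Y libraries (A, B), against 230.3 and 398 CPM in the WT libraries (1, 2). Libraries of a genotype differed by 1.76-fold in Tex11PM/Y cells and 1.73-fold in WT cells, and library B overlapped with WT library 1. The log2 fold change was -0.79 and the largest of the 9 in size (standard error 0.40, 95% interval -1.74 to 0.16, edgeR unadjusted p = 0.0918, adjusted p = 0.884). It was negative in all 13 alternatives, between -1.29 and -0.35. Ddit4 also had the widest range over the 4 libraries, 3.01-fold, and the highest mean level per length of the 9, at 310.1 TPM.

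Mtor (ENSMUSG00000028991.15, chr4:148448611-148557683, plus strand), the kinase itself, had 281 and 396 CPM in the Tex11PM/Y libraries (A, B), against 335 and 389.6 CPM in the WT libraries (1, 2). The Tex11PM/Y values enclosed the WT values. edgeR gave a log2 fold change of -0.10 (standard error 0.31, 95% interval -0.83 to 0.63, edgeR adjusted p = 0.966). It turned to 0.13 without library A and to 0.10 with limma on log2(TPM + 1), a scale that moved the median of all genes to 0.18, so that Mtor stayed below that median.

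**Figure D3:**
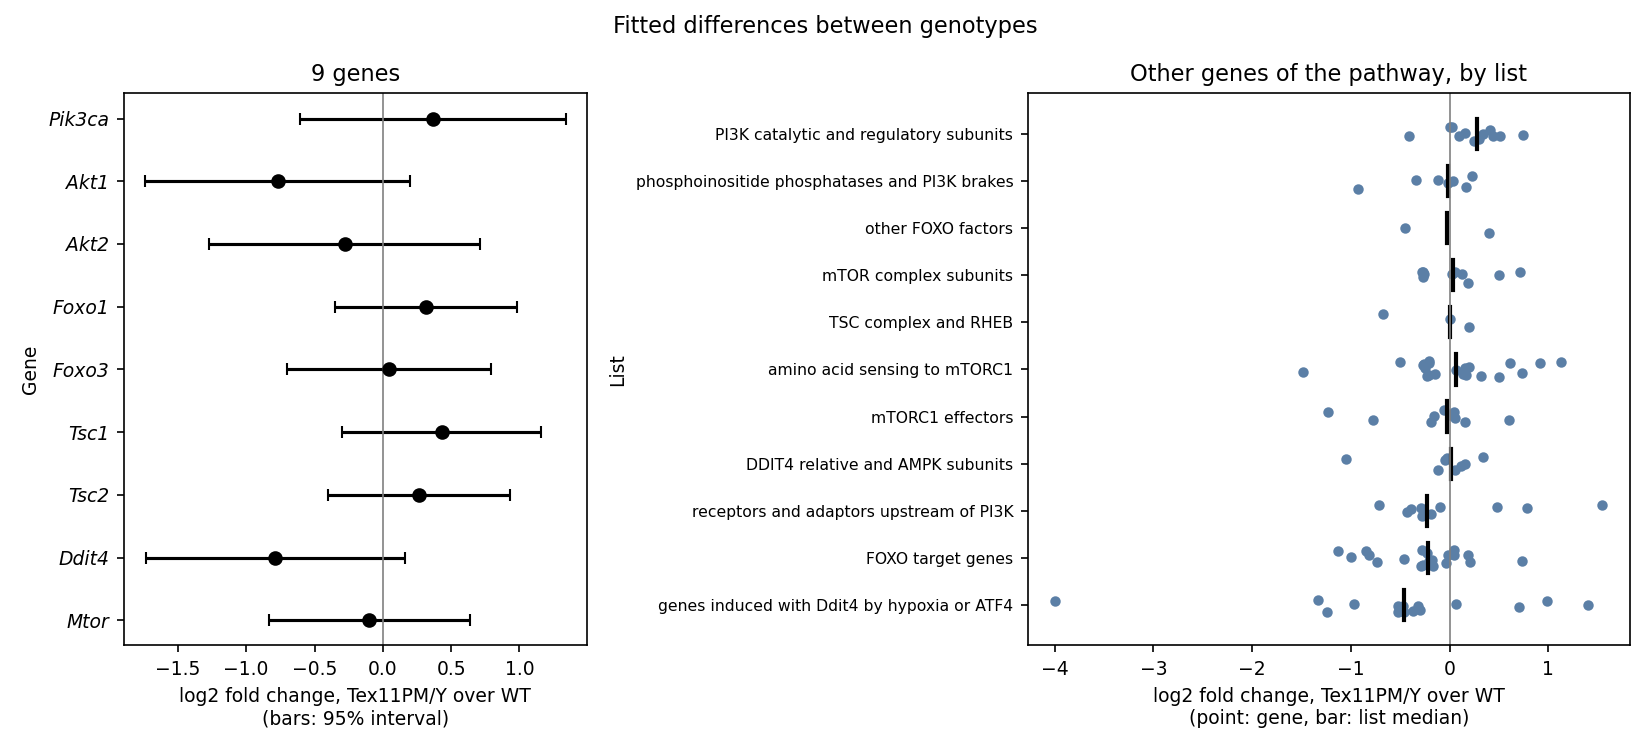
Left, the log2 fold change of each gene (Tex11PM/Y over WT, edgeR) with its 95% interval; right, the same quantity for each tested gene of 11 pathway lists (points) with the list median (bars). All 9 intervals on the left include 0, and the list medians lie between -0.46 and 0.27.

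The mean TPM over the 4 libraries ranked the 9 genes as Ddit4 at 310.1, Akt1 at 150.5, Foxo3 at 149, Akt2 at 138, Mtor at 93.4, Foxo1 at 92.6, Tsc2 at 69.7, Tsc1 at 29.8 and Pik3ca at 29.7. Between neighbours in this order the ranges over the 4 libraries overlapped, except that Tsc2, at 46.9 to 89.1 TPM, lay above Tsc1, at 18.4 to 43.3 TPM. Ddit4, at 191 to 515 TPM, overlapped Akt1, at 79.1 to 195 TPM, by its lowest library only. All 9 transcripts were thus well detected in both genotypes, since 3 counts correspond to at most 0.169 CPM.

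Library A was the lowest of the 4 for Akt1, Akt2, Ddit4 and Mtor, and WT library 1 was the lowest for the other 5. For Foxo3 the margin was small, at 349 CPM in library A and 345 CPM in WT library 1. These 2 libraries are those at the opposite ends of the fibroblast marker sum. Relative to the mean of the 4 libraries on the log2 CPM scale, Akt1 stood at -1.04, Akt2 at -0.81 and Ddit4 at -0.80 in library A, while Tsc1 stood at 0.40 and Pik3ca at 0.33. Fibroblast markers stood at -2.92 and macrophage markers at -3.67 in library A. The part of other cell types in the levels of Akt1, Akt2 and Ddit4 was not tested.

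**Figure D4:**
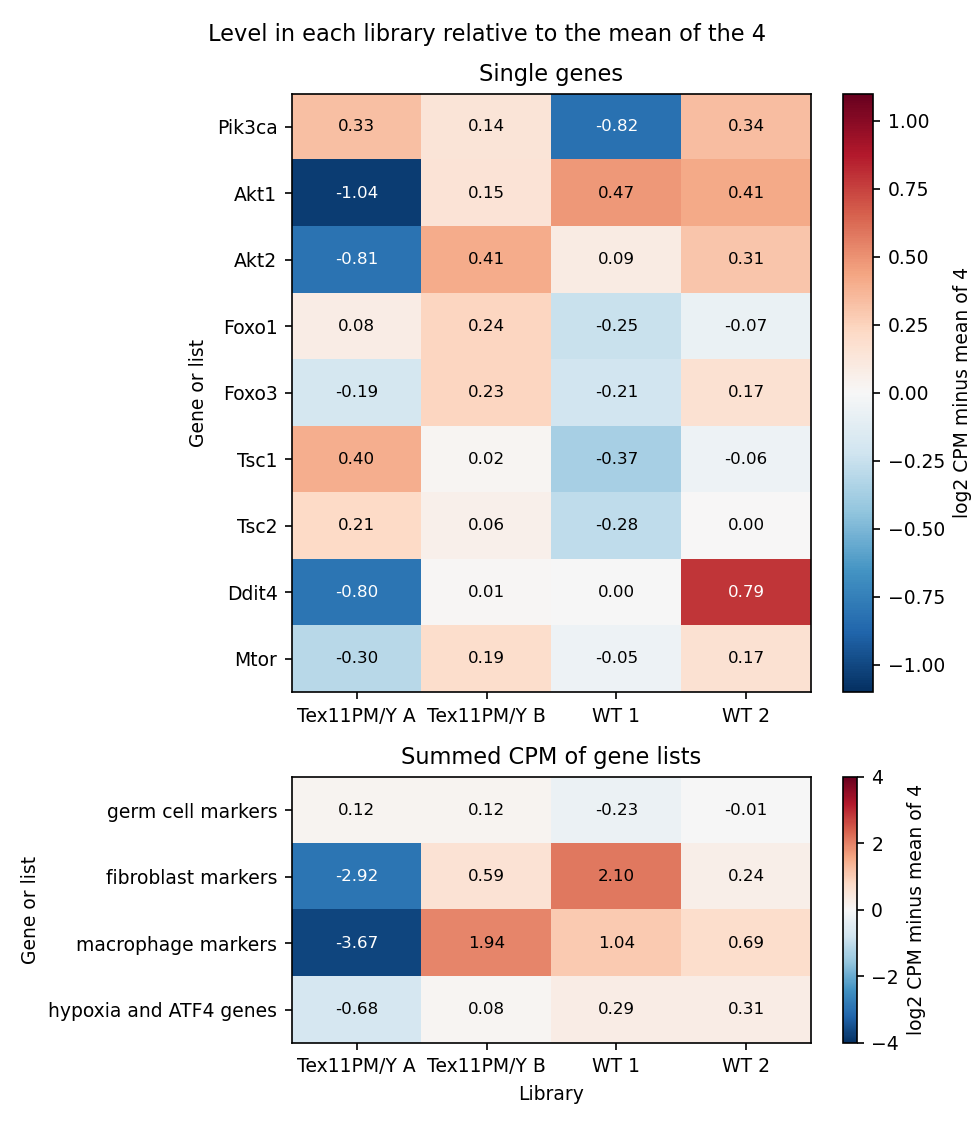
Heat map of log2 CPM minus the mean of the 4 libraries for each gene (top) and for the summed CPM of 4 lists (bottom), with the value printed in each cell and a separate colour scale for each panel. Library A is at -1.04 for Akt1 and -0.81 for Akt2. It is also lowest for the sums of the fibroblast, macrophage, and hypoxia and ATF4 lists, though not for every gene of the last list.

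Likeness between genes was measured as the root-mean-square difference of these centred log2 CPM values over the 4 libraries, a description only, since all genes share the same libraries. The closest members were Foxo3 and Mtor, at 0.099, then Tsc1 and Tsc2, at 0.110, and Foxo1 and Tsc2, at 0.119. Among the 113 tested genes of the 12 pathway lists, the nearest to Foxo1 were Pik3cb at 0.059 and Prkag1 at 0.097, and the nearest to Foxo3 were Rptor, the mTOR complex 1 scaffold, at 0.041 and Ulk1, an autophagy kinase, at 0.045. Pik3ca was nearest to Inpp4a at 0.195 and Pik3c3 at 0.218, both farther off than for most members. Akt1 was nearest to Klf6 at 0.067 and Trib1 at 0.179. Akt2 was nearest to Slc2a1, the glucose transporter GLUT1, at 0.040 and to Bnip3 at 0.166, both on the list of hypoxia and ATF4 genes. Mtor was nearest to Prkag2 at 0.059 and Lamtor5 at 0.073, Tsc1 to Prkaa1 at 0.059 and Nprl3 at 0.063, and Tsc2 to Pik3cb at 0.060 and Prkaa1 at 0.082. Ddit4 was nearest to Bnip3 at 0.174 and Vegfa at 0.209, both also on the list of hypoxia and ATF4 genes. These distances were farther than those of Akt2 and near those of Pik3ca. Bnip3 is on the list of FOXO targets as well.

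The 12 lists held 114 other genes of the pathway, each counted once, of which 113 could be tested. In edgeR 0 of them passed the adjusted threshold and 2 had an unadjusted p under 0.05, with 55 fitted higher and 58 lower in Tex11PM/Y cells and a median log2 fold change of -0.03 beside 0.01 over all genes. Both Tex11PM/Y libraries lay above both WT libraries for 15 of the 113, or 13.3% beside 16.1% of all genes, and below both for 26, or 23.0% beside 16.3%.

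Upstream of Pik3ca, 0 of 10 receptors and adaptors passed, with 3 fitted higher, 7 lower and a median of -0.23. Of those fitted lower, Fgfr1, Irs2, Insr and Gab1 lie on chromosome 8, and Gfra1, Ret and Kit on other chromosomes. Each of these genes was highest in WT library 1. Chromosome medians were not taken off for this list, and the median of chromosome 8 is not given. Whether chromosome 8 as a whole was shifted, and the part of any such shift, was not tested. Without WT library 1 the split was 7 higher and 3 lower, with a median of 0.13, and with limma on log2(TPM + 1) it was 5 and 5, with a list median of -0.005 below the 0.18 of all genes. Ret, the GDNF receptor kinase, was the most abundant, with 498 and 449 CPM in the Tex11PM/Y libraries (A, B), against 649 and 428 CPM in the WT libraries (1, 2), which overlap. Fgfr1, a receptor for FGF2, had 190.0 and 229 CPM in Tex11PM/Y cells, against 429.9 and 258 CPM in WT cells (log2 fold change -0.72, edgeR adjusted p = 0.884). Irs4, an insulin receptor adaptor, had 22.2 and 8.87 CPM in Tex11PM/Y cells, against 3.88 and 6.73 CPM in WT cells (log2 fold change 1.55, edgeR unadjusted p = 0.044, adjusted p = 0.884).

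Of the 12 PI3K subunits beside Pik3ca, 0 passed, 11 were fitted higher and 1 lower, with a median of 0.27. Without library B the split was 6 and 6, with a median of -0.04, so the lean rested on that library. Pik3r2 and Pik3cd had the highest levels per length, at mean TPM of 140.1 and 98.1. Pik3r3, a regulatory subunit, had 105 and 98.3 CPM in the Tex11PM/Y libraries (A, B), against 33.9 and 87.9 CPM in the WT libraries (1, 2) (log2 fold change 0.74). Pik3r1, the main regulatory subunit of many tissues, was low here, at 11.2 and 8.77 CPM in Tex11PM/Y cells and 12.5 and 14.1 CPM in WT cells (log2 fold change -0.41). WT library 1 was low for Pik3r3, as it was for Pik3ca.

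Brakes on the lipid signal were 8 genes, of which 7 were tested, 0 passed, 3 were fitted higher and 4 lower, with a median of -0.02. Inppl1 had the highest level per length of this list, at a mean of 67.5 TPM. The extremes were Inpp4a, with a log2 fold change of 0.23, and Phlpp1, which removes a phosphate from AKT, with -0.92. Inpp4b was too low to test.

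Pdpk1, which encodes the kinase PDK1 that activates AKT, was fitted higher, with a log2 fold change of 0.32, and did not pass (edgeR adjusted p = 0.890). It had 119 and 74.8 CPM in the Tex11PM/Y libraries (A, B), against 76.4 and 78.8 CPM in the WT libraries (1, 2), which overlap. The other FOXO genes gave log2 fold changes of 0.39 for Foxo4 and -0.45 for Foxo6, and 0 of 2 passed. Foxo4 had 89.1 and 84.4 CPM in the Tex11PM/Y libraries (A, B), against 67.4 and 64.7 CPM in the WT libraries (1, 2). Like Foxo1 it was apart and higher, as were 16.1% of all genes.

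Genes that FOXO factors are known to switch on numbered 20, of which 0 passed, 5 were fitted higher and 15 lower, with a median of -0.22. With limma on log2(TPM + 1) the split was 11 higher and 9 lower, and without library A it was 10 and 10. On the TPM scale the list median of 0.02 was still below the median of all genes, 0.18. Library A thus carried much of the lean. Txnip, an inhibitor of glucose uptake, had 157 and 326 CPM in the Tex11PM/Y libraries (A, B), against 724 and 336 CPM in the WT libraries (1, 2) (log2 fold change -1.13, edgeR adjusted p = 0.884). Sesn1, a stress sensor, had 78.1 and 70.8 CPM in Tex11PM/Y cells, against 34.7 and 55.0 CPM in WT cells (log2 fold change 0.73, edgeR adjusted p = 0.884). Tsc22d3 was the most abundant per length, at a mean of 552 TPM, and its log2 fold change was -0.04. Neither Foxo1 nor any gene on this list passed the test.

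Of the 15 genes induced with Ddit4 by hypoxia or ATF4, 0 passed, 4 were fitted higher and 11 lower, with a median of -0.46. The median was -0.23 without library A and -0.93 without library B. Those fitted higher were Chac1 at 1.40, Asns at 0.99, Trib3 at 0.70 and Sesn2 at 0.06, so the list did not move as a whole. Asns was highest in library A, with 144 and 36.9 CPM in the Tex11PM/Y libraries (A, B), against 45.1 and 46.2 CPM in the WT libraries (1, 2). Hypoxia genes and ATF4 genes were not summarized apart. Ldha, which makes lactate, had 62.3 and 278 CPM in the Tex11PM/Y libraries (A, B), against 281 and 387 CPM in the WT libraries (1, 2). Pgk1, a glycolytic kinase, had 26.0 and 108 CPM in Tex11PM/Y cells, against 191 and 145 CPM in WT cells. Library A was the lowest for both, as for Ddit4. Adm, a hypoxia-induced peptide hormone, had 0.353 and 5.03 CPM in Tex11PM/Y cells, against 79.3 and 6.78 CPM in WT cells (log2 fold change -3.99). WT library 1 stood far above the other libraries, and library A, with only 7 counts, far below them. Chac1, an ATF4 target, had the largest positive value, 1.40, with 34.9 and 46.5 CPM in Tex11PM/Y cells and 3.26 and 27.6 CPM in WT cells. Without library B, where library A stands alone for Tex11PM/Y and is assumed to vary like WT, 4 pathway genes passed in edgeR: Pgk1 at -2.74, Ldha at -2.47, P4ha1 at -2.37 and Asns at 1.61. They were among 518 genes called in that fit, 74 higher and 444 lower, and none was a member. P4ha1 and Asns are named because this count picked them, and Trib3 and Sesn2 for their fitted direction, all after their values were seen.

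Around Tsc1 and Tsc2, the 3 other genes of the complex and RHEB gave 0 calls, with 2 fitted higher and 1 lower and a median of 0.01. Rheb, the GTPase that TSC2 switches off, was level, with 80.4 and 89.9 CPM in Tex11PM/Y cells and 86.2 and 83.4 CPM in WT cells. Tbc1d7, the third TSC subunit, had 8.71 and 14.1 CPM in Tex11PM/Y cells, against 22.1 and 14.5 CPM in WT cells (log2 fold change -0.68). That fitted direction is opposite to those of Tsc1 and Tsc2, and none of these genes passed the test. Rhebl1, a relative of Rheb, gave 0.20.

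The AMPK subunits, its activator Stk11 and Ddit4l, a relative of Ddit4, made 8 genes, of which 0 passed, 4 were fitted higher and 4 lower, with a median of 0.01. Stk11 and Prkag1 had the highest levels per length, at mean TPM of 177 and 85.1. Prkaa1 gave the largest positive log2 fold change, 0.34. Ddit4l gave the largest negative one, -1.05, from 1.61 and 1.79 CPM in Tex11PM/Y cells and 4.94 and 2.12 CPM in WT cells. Per length Ddit4l had a mean of 2.01 TPM over the 4 libraries, beside 310.1 TPM for Ddit4.

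Beside Mtor, 10 subunits of its complexes gave 0 calls, with 6 fitted higher and 4 lower and a median of 0.04. Rictor, which defines mTOR complex 2, had 368 and 201 CPM in the Tex11PM/Y libraries (A, B), against 129 and 219 CPM in the WT libraries (1, 2) (log2 fold change 0.71), and its groups overlap. Akt1s1 and Prr5 had the highest levels per length, at mean TPM of 110.5 and 97.6, and Prr5 also gave the largest negative log2 fold change, -0.28. The 21 genes of amino acid sensing gave 0 calls, with 11 fitted higher and 10 lower and a median of 0.06. Lamtor1 and Rragd had the highest levels per length there, at mean TPM of 254 and 178, and Rragb and Castor1 the extremes of fold change, at 1.13 and -1.49.

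Downstream, 0 of 10 effectors of mTOR complex 1 passed, with 5 fitted higher and 5 lower and a median of -0.03. Tfeb, a lysosomal transcription factor that the complex holds out of the nucleus, had 6.75 and 14.5 CPM in the Tex11PM/Y libraries (A, B), against 29.3 and 20.8 CPM in the WT libraries (1, 2) (log2 fold change -1.24, edgeR unadjusted p = 0.0478, adjusted p = 0.884). Rps6kb1, the S6 kinase, gave the largest positive value, 0.60, with library A highest at 41.7 CPM and the other 3 libraries between 15.5 and 23.7 CPM. Rps6 and Eif4b had the highest levels per length, at mean TPM of 2446 and 338. Tfeb and Irs4 were the 2 genes of all lists with an unadjusted p under 0.05, in opposite directions.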

How the data were processed

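Poly(A) RNA of 4 libraries was used, with 1 µg of RNA each and a kit not stated to keep strand, per the labels' protocols. Tools in the submitters' processing notes are STAR, fastp, StringTie, featureCounts and DESeq2, without roles, with mm10 as the build. The sources used here do not name the annotation. Raw read counts, whole numbers for 55335 genes, were deposited beside FPKM and TPM of 37653 genes, both computed by the authors per the file headers.

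Members were found by symbol in the FPKM table and joined by gene identifier to the counts. The members and lists were chosen with earlier results of these data known. Both Tex11PM/Y columns carry 1 name, so libraries A and B follow column order and cannot be tied to a replicate number. No pair of libraries was identical or alike within sampling noise (chi-square per degree of freedom between 18.7 and 217). The most alike pair, at 18.7, was library B and WT library 2, which differ in genotype. Libraries of the same genotype were less alike, at 96.5 for A and B and 94.8 for the WT libraries, so the libraries did not group by genotype.

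Counts were fitted with edgeR 4.0.16 under R 4.3.3 (TMM, filterByExpr, robust quasi-likelihood, genotype alone), with two-sided p-values adjusted over 17262 genes by Benjamini-Hochberg and a threshold of 0.05. Standard errors and 95% intervals came from the F statistic. Log2 CPM used a prior count of 2, and the limit that a count of 0 allows is 3 counts, between 0.149 and 0.169 CPM. Counting errors cover counting only. The edgeR steps were run on simulated counts that spread less than these data, to check that known fold changes were recovered in the median. That does not show how often such changes would be called here. Shares within families used TPM and exact permutation tests. Other fits used DESeq2 1.42.0, DESeq2 size factors in edgeR, library size alone, no filter, at least 1 CPM in 2 libraries, limma 3.58.1 on log2(TPM + 1), log2(FPKM + 1) and log2(FPKM + 0.1) for genes at 0.5 or more in 2 libraries, centring on each chromosome, and leaving out each library.

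Named genes were the 9 members, Tex11 and, from each list, the 2 highest in mean TPM, the extremes of fold change and genes past the threshold, with the 2 nearest in pattern to each member. Marker genes and others named for a single count, for their direction or for their chromosome were chosen after their values were seen. Of the genes this rule took, 2 are not reported here, nor are values that need them, though they count in the totals.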

Additional observations from a re-analysis of the deposited data

How the results depend on the processing

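Of 117 alternative fold changes of the 9 members, 111 kept their direction, and 6 reversed. Of the 108 with a p, 0 passed the threshold; the 9 with chromosome medians taken off have none. The reversals were Foxo3 at -0.23 without library B and -0.15 without WT library 1 (range over left-out libraries -0.23 to 0.24), Pik3ca at -0.12 without WT library 1 (range -0.12 to 1.04), Akt2 at 0.21 without library A (range -1.06 to 0.21), and Mtor at 0.13 without library A (range -0.41 to 0.13) and 0.10 with limma on log2(TPM + 1). That scale moved the median of all genes to 0.18. The lowest adjusted p of any member over these 108 was for Akt1 without library B, where its log2 fold change was -1.53. In that fit library A stands alone for Tex11PM/Y and is assumed to vary like WT. In fits of all 4 libraries the lowest edgeR adjusted p was 0.650, for Ddit4 without a filter on low counts. Members past the threshold numbered 0 in each of the 12 fits with a test. Genes past it over the whole table numbered 0 in the main fit, 1 with DESeq2, 50 without a filter on low counts (16 higher and 34 lower), and 0 to 518 when each library was left out, with the 518 coming without library B. Pathway genes past it numbered 0 to 4 over the left-out libraries, with the 4 also without library B. The cause was not tested. Splits of the pathway lists under each alternative, and values per library with chromosome medians taken off, were computed after the values were seen. No paired analysis was possible because both Tex11PM/Y columns carry the same replicate number. With 2 libraries a genotype, 95% intervals of the members reach 0.66 to 0.99 log2 units to either side, so fitted differences smaller than that could not be told from 0. These intervals are not adjusted for the number of genes tested. Larger differences also missed the adjusted threshold, as did Tex11 at a log2 fold change of -2.59 (edgeR adjusted p = 0.884).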
